A study of Xenopus laevis with 5 samples.

Results

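The Sox genes encode transcription factors that share a DNA-binding HMG box, and 36 gene models of this family were found among the 45099 models in the count files by taking every symbol in the deposited annotation that begins with sox and a digit, with all copies. Xenopus laevis is an allotetraploid frog, so many genes have an L and an S copy, named for the longer and shorter chromosome of each homeologous pair, and the 36 models include 16 such pairs. RNA was sequenced from whole embryos at a labelled stage of 10.5, which is early gastrula. They had been injected with 18 ng of a translation-blocking MOV10 morpholino (2 libraries, replicates 2 and 3) or with 18 ng of a control morpholino (3 libraries, replicates 1, 2 and 3). A morpholino is a stable antisense oligonucleotide, and MOV10 is an RNA helicase of the RNA-induced silencing complex. The eggs came from 2 mating pairs, and by the labels the replicates are biological ones taken from different embryos. The sources used here do not say which pair or how many embryos stood behind each library.

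Sox proteins bend DNA at short AT-rich sites and act with partner factors, which decide which genes they switch on or off. In the early frog embryo SoxB1 proteins mark ectoderm that can become neural, SoxF proteins build endoderm and later vessels, SoxE proteins act in neural crest and cartilage, SoxD proteins lack an activation domain and work beside SoxE, and SoxC proteins act in maturing neural and mesenchymal cells. The comparison asked how RNA of the early embryo differed when translation of MOV10 was blocked, and the family is described here group by group.

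Gene counts were 11727654 and 11347400 reads in the MOV10 libraries and 11592035 to 13515787 in the controls, and 20049 models had enough reads to be tested. Levels are CPM, gene counts brought to an equal library size with TMM scaling. A count of 3 corresponded to 0.282 and 0.283 CPM in the MOV10 libraries and 0.200 to 0.247 CPM in the controls. The groups stood far apart as a whole, with a correlation across genes of log2(CPM + 1) of 0.761 to 0.791 between groups, 0.950 between the MOV10 libraries and 0.968 to 0.969 among the controls. Of all tested genes 42.1% passed an adjusted p of 0.05 in edgeR's quasi-likelihood test, 24.4% higher and 17.7% lower. The targeted gene mov10.L had 349 and 275 counts in the MOV10 libraries against 105, 33 and 71 in the controls, a log2 fold change of 2.49 ± 0.40 (SE; edgeR adjusted p = 0.00180). A morpholino of this kind blocks translation and leaves the RNA in place, so this level is no check of the labels. Markers of skeletal and cardiac muscle, which are not due at stage 10.5, differed with the groups. Of 25 tested muscle models 22 rose and 0 fell (22 and 0 by DESeq2). Summed levels of the list were 16246 and 19136 CPM in the MOV10 libraries against 188 to 537 CPM in the controls. In the controls 11 of the 38 muscle models had no read. Models such as mybpc3.S, with 2 control counts, passed the filter on low counts through the MOV10 libraries alone, so the number that rose was partly set by it. Among 15 multiciliated-cell models 10 rose, with sums of 551 and 460 CPM in the MOV10 libraries against 77.5 to 170 CPM in the controls. Neuron markers summed to 15.4 and 15.2 CPM in the MOV10 libraries and 12.3 to 17.6 CPM in the controls, with 2 of 6 tested models lower. Blood markers summed to at most 1.27 CPM in any library, and none passed the filter. The part of these markers in the Sox results was not tested. Whether the MOV10 embryos had the labelled stage was not tested either, and in these groups stage and morpholino cannot be told apart.

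The 4 marker genes of the family, sox2, sox3, sox17a and sox9, were all read. Of the 36 Sox models 22 passed the filter on low counts. Of these 5 rose, 4 fell and 13 missed the threshold, so 40.9% were called, against 42.1% of all genes. At that share the family was called about as often as any tested gene. The median log2 fold change of the 22 members was 0.37, and 0.08 over all tested genes, which became -0.12 when libraries were scaled by total gene counts. The 9 called members kept their direction under that scaling and under the size factors of DESeq2. Both MOV10 libraries lay above all controls for 9 of the 22 members (35.5% of all tested genes did so) and below all controls for 5 (30.4% of all tested genes), so the groups did not overlap for 14 of 22 members, against 65.9% of all tested genes. The 5 that rose were sox4.S, sox5.S, sox9.L, sox11.S and sox13.S, all of groups C, D and E. The 4 that fell were sox3.L, sox3.S, sox15.L and sox17b.1.S. Of those that rose, sox4.S and sox9.L passed the filter through the MOV10 libraries alone, so their direction was partly set by it. The same holds for sox4.L, sox7.S and sox8.L, which lay above all controls but missed the threshold. In turn sox21.S passed through the controls alone. The number of members above all controls and the median of the 22 members were therefore partly set by the filter. A fall in a whole embryo can mean fewer cells of a type or less RNA per cell, which cannot be told apart in these libraries. In the authors' deposited table, whose false discovery rates come from their own comparison, 6 of the same 22 members stood under 0.05, which left out both sox3 copies and sox17b.1.S.

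**Figure D1:**
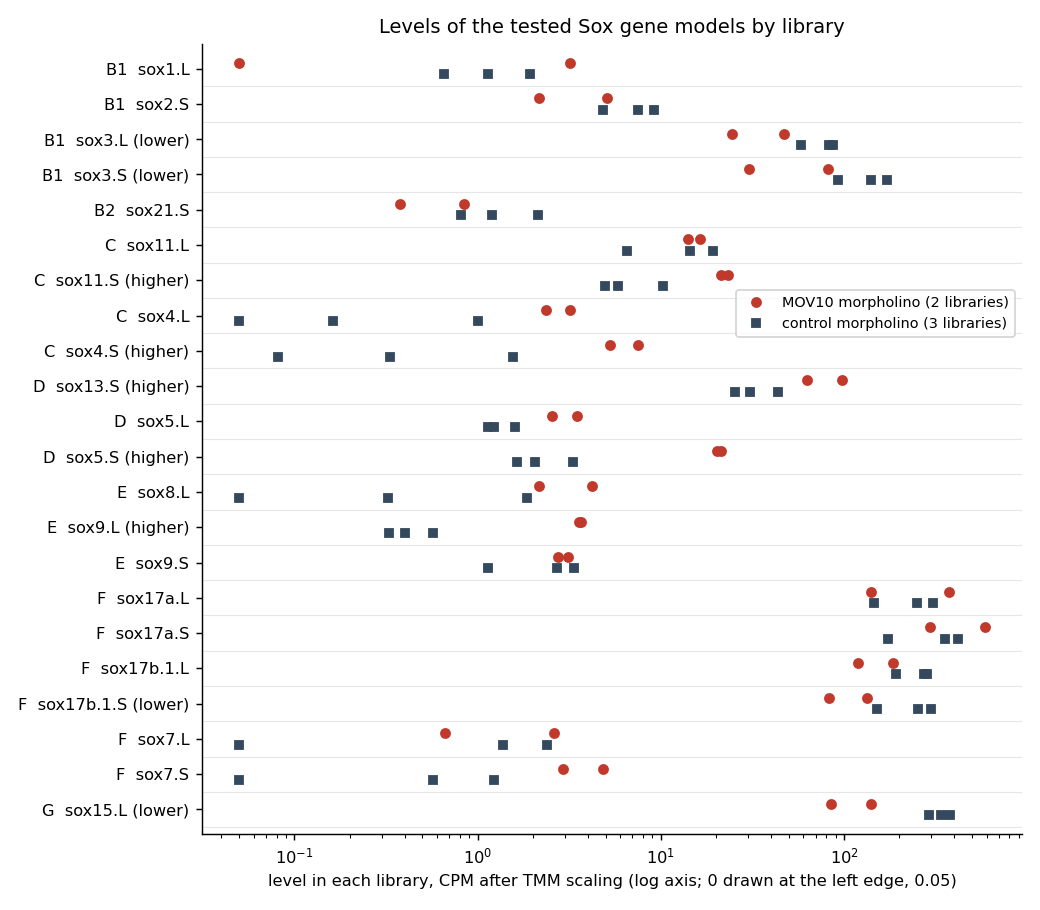
Level of each tested Sox model in every library, in CPM on a log axis, ordered by Sox group, with MOV10 libraries as red circles above the control libraries as dark squares and a level of 0 drawn at the left edge. The red and dark points are apart for sox5.S, sox9.L and sox15.L, while those of sox17a.L and sox17a.S overlap.

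SoxB1 genes were the first group. Sox3 is present in the egg, represses nodal genes in the frog and marks the prospective neural plate. The copy sox3.L (Xelaev18038842m.g, Xenla9.1 build, chromosome 8L, 33862117 to 33863802) had 46.9 and 24.6 CPM in the MOV10 libraries, against 83.2, 87.2 and 58.0 CPM in the controls. Both MOV10 libraries lay below all controls, and replicate 3 was the lower one. It fell by 1.09 ± 0.33 on the log2 scale (SE; edgeR adjusted p = 0.0265). For sox3.S (Xelaev18042169m.g, 8S, 61037566 to 61039219) the levels were 81.6 and 30.4 CPM in the MOV10 libraries and 173, 140 and 93.3 CPM in the controls, again without overlap. Its log2 fold change was -1.27 ± 0.42 (SE), with an edgeR adjusted p = 0.0402. Both copies fell together, and their share of L reads was alike in the groups (40.6 ± 5.83% in the MOV10 group, SD, n = 2, and 36.4 ± 3.37% in the controls, SD, n = 3).

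The sox3 calls rested on few libraries. Without MOV10 replicate 3 the log2 fold changes were -0.71 for sox3.L and -0.74 for sox3.S, with edgeR adjusted p-values of 0.138 and 0.153. Without control replicate 1 the adjusted p-values in edgeR were 0.0606 and 0.0977, and without control replicate 2 they were 0.0700 and 0.0807. Without MOV10 replicate 2 the log2 fold changes were -1.64 and -2.16.

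Sox2, a pluripotency and neural factor, was represented by a short model of 582 bp on Scaffold33547 named sox2.S, and no sox2.L model was analysed here. It had 5.07 and 2.17 CPM in the MOV10 libraries and 7.55, 9.19 and 4.86 CPM in the controls. MOV10 replicate 2 lay inside the control range, and the log2 fold change of -0.99 ± 0.51 (SE) did not pass the test (edgeR adjusted p = 0.150). The neural gene sox1.L had 34 and 0 counts in the MOV10 libraries and 29, 14 and 8 in the controls. The MOV10 libraries lay on either side of the controls, and the log2 fold change was 0.35 ± 1.23 (SE). Its copy sox1.S was not tested, with 16 and 5 counts in the MOV10 libraries and 2, 0 and 0 in the controls, a scaled ratio of 19.5 (exact 95% counting interval 4.76 to 171) that became 9.29 (1.52 to 97.5) without MOV10 replicate 2, 29.6 (6.96 to 265) without MOV10 replicate 3 and at least 8.04-fold without control replicate 1, which held both control reads. The opposite strand, which was not counted, held 1 and 0 reads of sox1.S in the MOV10 libraries and 18, 0 and 0 in the controls. The sox1.S ratio therefore depends on the choice of strand. All of sox1.L, sox2.S, sox3.L and sox3.S were higher in MOV10 replicate 2 than in MOV10 replicate 3, by 1.91 to 2.69 times where replicate 3 had reads. All of these were also higher in control replicate 2 than in control replicate 3.

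SoxG holds a single gene, sox15, known in the frog as SoxD, which can turn ectoderm toward neural fate. The model sox15.L (Xelaev18019577m.g, 3L, 142772483 to 142775654) had 140 and 84.7 CPM in the MOV10 libraries, against 338, 379 and 292 CPM in the controls. The MOV10 libraries lay far below every control, at a mean of 112 ± 38.8 CPM in the MOV10 group (SD, n = 2) against 336 ± 43.6 CPM in the controls (SD, n = 3). The gene fell by 1.58 ± 0.26 on the log2 scale (SE), with an edgeR adjusted p = 0.00192. This call held in all 11 alternative settings, with log2 fold changes of -2.00 to -1.28. No S copy of sox15 was analysed here.

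SoxB2 proteins are repressors that oppose SoxB1 in neural tissue. Of 5 models only sox21.S passed the filter, with 9 and 4 counts in the MOV10 libraries and 18, 10 and 26 in the controls, and a log2 fold change of -1.17 ± 0.84 (SE) that did not pass the test. The models sox14.L and sox14.S had no read in any library. At these depths 0 counts allow up to 0.282 and 0.283 CPM in the MOV10 libraries and up to 0.200, 0.244 and 0.247 CPM in the controls. In sox21.L the counts were 7 and 1 in the MOV10 libraries and 19, 2 and 0 in the controls, and sox21-like.S had 4 counts, all in control replicate 1.

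SoxC genes act in neural progenitors and mesenchyme. Here sox11.S (Xelaev18030058m.g, 5S, 116889088 to 116893765) had 21.3 and 23.3 CPM in the MOV10 libraries, against 10.3, 5.85 and 4.94 CPM in the controls. The MOV10 libraries agreed closely with each other and lay above all controls. The gene rose by 1.66 ± 0.36 on the log2 scale (SE; edgeR adjusted p = 0.00707), and the call held in all 11 alternatives, at 1.45 to 2.05. Its homeolog sox11.L had 16.4 and 14.1 CPM in the MOV10 libraries and 19.3, 14.5 and 6.51 CPM in the controls, which overlap, with a log2 fold change of 0.18 ± 0.43 (SE).

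The other SoxC genes tested were the sox4 copies. The S copy, sox4.S (Xelaev18033503m.g, 6S, 73514578 to 73518378) had 80 and 56 counts in the MOV10 libraries and 5, 1 and 19 in the controls. In CPM these were 7.51 and 5.28 in the MOV10 libraries against 0.334, 0.0813 and 1.57 in the controls, of which replicate 2 lay under the level of 3 counts. It rose by 3.28 ± 0.87 on the log2 scale (SE; edgeR adjusted p = 0.0165). Without MOV10 replicate 2 the adjusted p in edgeR was 0.0641 at a log2 fold change of 2.99, and without control replicate 3 the log2 fold change was 4.82. The copy sox4.L lay above all controls in both MOV10 libraries as well, with 34 and 25 counts against 15, 2 and 0. Its log2 fold change of 2.75 ± 1.11 (SE) had an edgeR adjusted p = 0.0760. The log2 fold change was 4.91 without control replicate 1 (edgeR adjusted p = 0.0133). Without control replicates 2 and 3 in turn it was 2.40 and 2.20 (edgeR adjusted p = 0.154 and 0.105). The models sox12.L and sox12.S had no read in any library.

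SoxD genes rose in 2 of 3 tested models, where 24.4% of all tested genes rose. Sox5 and Sox6 bind beside Sox9 at cartilage genes in the mouse, and Sox13 dampens signalling through TCF factors there. The level of sox5.S (Xelaev18019705m.g, 3S, 801289 to 895997) was 21.3 and 20.3 CPM in the MOV10 libraries, against 2.07, 3.33 and 1.65 CPM in the controls. No control came near the MOV10 libraries, which differed by 1.05 times. The log2 fold change was 3.14 ± 0.38 (SE), or 8.82-fold, with an edgeR adjusted p = 4.87e-04, the smallest of the family, and it was called in all 11 alternatives at 2.94 to 3.47. The homeolog sox5.L had 2.53 and 3.49 CPM in the MOV10 libraries and 1.60, 1.14 and 1.24 CPM in the controls. It also lay above all controls, at a log2 fold change of 1.17 ± 0.56 (SE) that did not pass the test (edgeR adjusted p = 0.125).

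The model sox13.S (Xelaev18014852m.g, 2S, 54436841 to 54529148) had 63.2 and 97.6 CPM in the MOV10 libraries, against 43.4, 30.7 and 25.3 CPM in the controls. It rose by 1.28 ± 0.30 on the log2 scale (SE; edgeR adjusted p = 0.00907). Without MOV10 replicate 3 the log2 fold change was 0.92, with an edgeR adjusted p = 0.0704. The sox6 models were not tested, with 8 and 6 counts of sox6.L in the MOV10 libraries against 1, 0 and 2 in the controls (ratio 8.65, exact 95% counting interval 2.41 to 46.9). Without control replicate 3 that ratio was 18.0 (2.73 to 759). The opposite strand of sox6.L, which was not counted, held 6 and 0 reads in the MOV10 libraries and 0 in the controls. For sox6.S the counts were 2 and 7 in the MOV10 libraries and 2, 7 and 0 in the controls.

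SoxE genes specify neural crest in the frog, and Sox9 is the main regulator of cartilage. Of its copies, sox9.L (Xelaev18002418m.g, Scaffold30, 1787977 to 1794161) had 39 and 38 counts in the MOV10 libraries and 6, 7 and 4 in the controls. The levels were 3.66 and 3.58 CPM in the MOV10 libraries and 0.401, 0.569 and 0.330 CPM in the controls, close within each group and far apart between them. The gene rose by 3.04 ± 0.63 on the log2 scale (SE; edgeR adjusted p = 0.00563), in all 11 alternatives at 2.84 to 3.27. In sox9.S the levels were 3.1 and 2.73 CPM in the MOV10 libraries and 3.34, 1.14 and 2.72 CPM in the controls, which overlap (log2 fold change 0.28 ± 0.60, SE). Early crest gene sox8.L had 45 and 23 counts in the MOV10 libraries and 28, 4 and 0 in the controls, and its log2 fold change of 2.07 ± 1.13 (SE) did not pass the test. Without control replicate 1 it was 4.20 (edgeR adjusted p = 0.0255). Without control replicates 2 and 3 in turn it was 1.73 and 1.51 (edgeR adjusted p = 0.312 and 0.229).

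The other SoxE models had too few reads to test. The crest and glial gene sox10.L had 12 and 5 counts in the MOV10 libraries and 0 in all 3 controls, at least 10.5-fold higher when the controls combined are set to a floor of 3 counts. Its copy sox10.S had 2 counts, both in MOV10 replicate 2. For sox8.S the counts were 15 and 2 in the MOV10 libraries and 2, 0 and 0 in the controls, a ratio of 15.8 (exact 95% counting interval 3.74 to 141). The sox8.S ratio was 3.71 (0.269 to 51.2) without MOV10 replicate 2 and 27.7 (6.45 to 250.0) without MOV10 replicate 3. For sox10.L the bound was 6.19-fold without MOV10 replicate 2, and without control replicate 1 both genes were at least 6.51-fold higher. The opposite strand of sox10.L, which was not counted, held 0 and 5 reads in the MOV10 libraries and 0 in the controls.

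**Figure D2:**
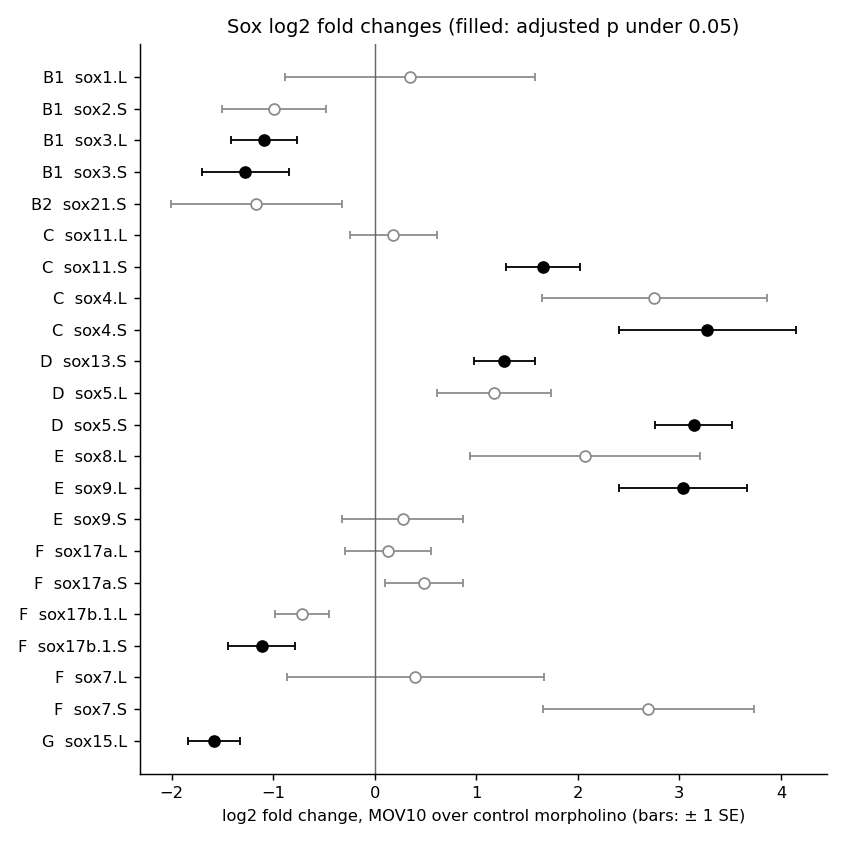
Log2 fold change, MOV10 over control morpholino, with 1 SE to each side, for the 22 tested Sox models in order of Sox group; filled points passed an adjusted p of 0.05. The 5 filled points to the right of 0 are sox11.S, sox4.S, sox13.S, sox5.S and sox9.L, and the 4 to the left are sox3.L, sox3.S, sox17b.1.S and sox15.L.

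SoxF holds the endoderm factor Sox17, which in the frog comes as sox17a and sox17b, and the vascular genes sox7 and sox18. The 4 sox17 models took the largest part of the family's reads, 59.4 and 79.8% in the MOV10 libraries and 49.5 to 70.4% in the controls. The sox17a copies varied widely inside both groups. Of these, sox17a.L had 140 and 375 CPM in the MOV10 libraries and 307, 146 and 251 CPM in the controls, and sox17a.S had 295 and 590 CPM against 417, 174 and 357 CPM. Both overlap, at log2 fold changes of 0.13 ± 0.42 and 0.48 ± 0.39 (SE).

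The sox17b.1 copies lay lower in the MOV10 libraries. The copy sox17b.1.S (Xelaev18033725m.g, 6S, 92082919 to 92085379) had 82.9 and 134 CPM in the MOV10 libraries, against 255, 152 and 297 CPM in the controls. No MOV10 library reached the lowest control. It fell by 1.11 ± 0.33 on the log2 scale (SE; edgeR adjusted p = 0.0250), and the adjusted p in edgeR was 0.133 without MOV10 replicate 2, 0.0562 without control replicate 1 and 0.0825 without control replicate 3. In sox17b.1.L (Xelaev18032021m.g, 6L, 115860633 to 115862675) the levels were 119 and 185 CPM in the MOV10 libraries and 274, 192 and 283 CPM in the controls, also without overlap. Its log2 fold change of -0.72 ± 0.26 (SE) missed the threshold at an edgeR adjusted p = 0.0573 and passed it in 7 of 11 alternatives.

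Setting the sox17 genes against each other within a library removes the scaling between libraries. There were 2.16 and 3.02 reads of sox17a per read of sox17b.1 in the MOV10 libraries, against 1.37, 0.932 and 1.05 in the controls. Every MOV10 library had the higher ratio. The mean log2 ratio was 1.35 ± 0.34 in the MOV10 group (SD, n = 2) and 0.14 ± 0.28 in the controls (SD, n = 3), a difference of 1.21 or 2.32-fold. An exact two-sided permutation test over the 10 arrangements of the libraries gave p = 0.10, the smallest value that 2 against 3 libraries allow, so the design cannot pass 0.05 here. Among the S copies alone the ratio was 3.56 and 4.40 in the MOV10 libraries and 1.63, 1.15 and 1.2 in the controls. Among the L copies it was 1.18 and 2.02 in the MOV10 libraries and 1.12, 0.759 and 0.887 in the controls. Leaving out each library in turn gave differences of 0.97 to 1.46 (log2). The 4 models are near neighbours in sequence and on chromosomes 6L and 6S, and reads that map to several places were not counted, so reads shared between them are missing to an unknown extent. This ratio was chosen after its values were seen.

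**Figure D3:**
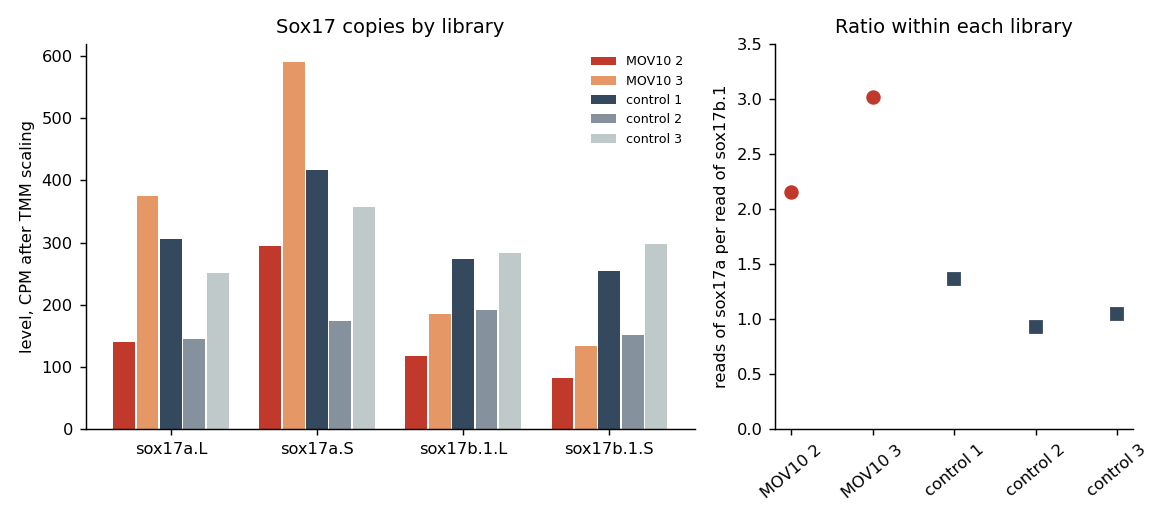
Left, level of the 4 sox17 models in each library, in CPM; right, reads of sox17a per read of sox17b.1 within each library, L and S copies summed. The MOV10 libraries reach 2.16 and 3.02 reads of sox17a per read of sox17b.1, above the controls at 0.932 to 1.37.

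Sox7 is a maternal activator of nodal genes in the frog. For sox7.S there were 31 and 51 counts in the MOV10 libraries and 0, 7 and 15 in the controls, without overlap. The log2 fold change was 2.69 ± 1.04 (SE; edgeR adjusted p = 0.0671). It was 3.79 without control replicate 3 (edgeR adjusted p = 0.0470). Without control replicates 1 and 2 in turn it was 2.08 and 2.67 (edgeR adjusted p = 0.0562 and 0.129), and without MOV10 replicate 3 it was 2.27. The L copy had 28 and 7 counts in the MOV10 libraries and 0, 17 and 29 in the controls, which overlap (log2 fold change 0.40 ± 1.26, SE). Control replicate 1 held no read of either sox7 copy. The vascular gene sox18.L had 5 and 3 counts in the MOV10 libraries and none in the controls, at least 4.94-fold higher by the same floor. That bound was 3.06-fold without control replicate 1, and without MOV10 replicate 2 the gene had only the 3 counts of MOV10 replicate 3. The opposite strand of sox18.L, which was not counted, held 4 and 0 reads in the MOV10 libraries and 0 in the controls. Its copy sox18.S had none in the MOV10 libraries and 2, 3 and 0 in the controls.

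Summed over all 36 models the family stood at 1071 and 1609 CPM in the MOV10 libraries and 1943, 1341 and 1686 CPM in the controls, which overlap. The 7 models of sox3, sox15, sox17a and sox17b.1 held 84.4 and 88.5% of the family's reads in the MOV10 libraries and 94.6 to 96.7% in the controls. The SoxD sum was 87.9 and 123 CPM in the MOV10 libraries against 28.3 to 47.3 CPM in the controls, and the SoxE sum was 13.7 and 9.14 CPM against 2.03 to 5.74 CPM. The SoxB1 sum was 138 and 57.6 CPM in the MOV10 libraries and 157 to 265 CPM in the controls. In SoxF the sums overlap, at 642 and 1290 CPM in the MOV10 libraries and 666 to 1253 CPM in the controls.

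The MOV10 libraries also differed from each other by group. The 4 sox17 models were 1.56 to 2.69 times higher in replicate 3 than in replicate 2, and sox15.L was 1.65 times higher in replicate 2. Control replicates 2 and 3 differed in the same direction for all of these models. For example, they had 174 and 357 CPM of sox17a.S and 379 and 292 CPM of sox15.L. The levels of sox5.S, sox9.L and sox11.S differed by 1.02 to 1.09 times between the MOV10 libraries. MOV10 replicate 2 also had 5.53% of its reads mapping to several places, against 2.13% in MOV10 replicate 3 and 2.02 to 2.31% in the controls.

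The copies of a pair did not always move alike. The ratio of L to S within a library needs no gene length to be compared between groups. It was tested with limma over 5335 pairs, of which 26.7% passed an adjusted p of 0.05. A pseudocount of 0.5 CPM was added to each copy, so the ratio depends on it and on the scaling where a copy lies near that level. Of the 16 Sox pairs 8 could be tested and 2 passed, sox5 and sox11, so Sox pairs passed about as often as any tested pair. In sox5 the L copy held 10.6 and 14.7% of the pair's reads in the MOV10 libraries, against 43.6, 25.5 and 42.9% in the controls, where the pair had 35 to 55 reads and the 95% Wilson interval of the shallowest library ran from 28.0 to 59.1%. The log2 change of the ratio was -2.01 ± 0.53 (SE; limma adjusted p = 0.0218). In sox11 the L copy held 43.5 and 37.8% in the MOV10 libraries, against 65.2, 71.2 and 56.8% in the controls, a log2 change of -1.36 ± 0.40 (SE; limma adjusted p = 0.0324). In both pairs the S copy rose and the L copy did not pass the test.

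The sox9 pair ran the other way. Its L copy held 54.2 and 56.7% of the reads in the MOV10 libraries, against 10.7, 33.3 and 10.8% in the controls. The log2 change was 1.83 ± 0.61 (SE), with a limma adjusted p = 0.0557 that became 0.0270 without control replicate 2. Without control replicates 1 and 3 in turn the limma adjusted p was 0.151 and 0.139. For sox17a, sox17b.1, sox3, sox4 and sox7 the log2 changes were -0.46 ± 0.17, 0.37 ± 0.17, 0.26 ± 0.24, -0.73 ± 0.83 and -1.68 ± 0.71 (SE), none past the threshold. Control replicate 1 had no read of either sox7 copy, so its sox7 ratio came from the pseudocount alone, and without that library the sox7 change was -1.92 (limma adjusted p = 0.118). The sox5 and sox11 pair calls ended when any of several libraries was left out, while the log2 changes kept their direction. Over the 10 alternative settings they ran from -2.31 to -1.77 for sox5 and from -1.59 to -1.15 for sox11. Without control replicate 1 the limma adjusted p was 0.0581 for sox5 and 0.0805 for sox11, and without MOV10 replicate 3 it was 0.0841 and 0.158. Without MOV10 replicate 2 it was 0.135 and 0.0986. The sox5 call also ended without control replicate 3 (limma adjusted p = 0.0580) and the sox11 call without control replicate 2 (limma adjusted p = 0.0910).

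**Figure D4:**
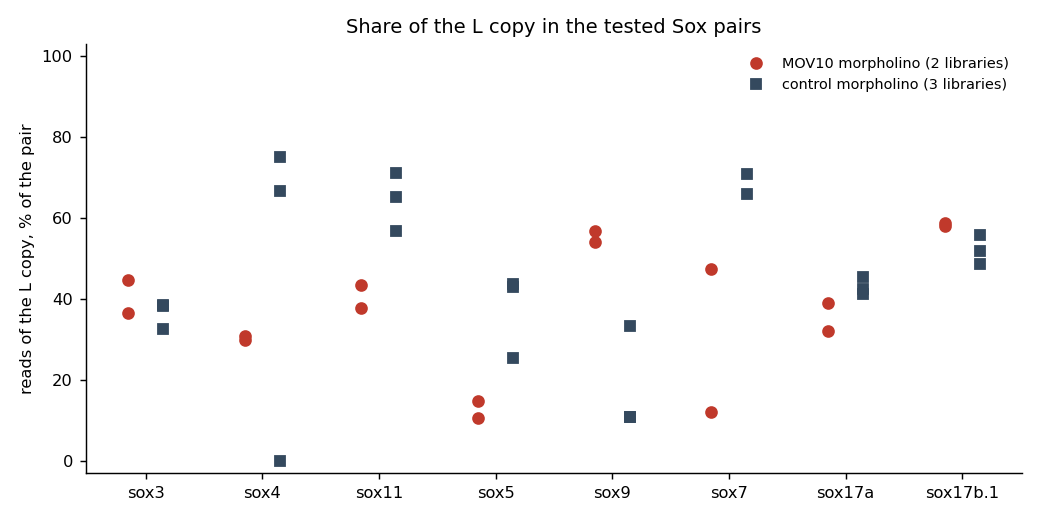
Share of the L copy in the reads of each of the 8 tested Sox pairs, in percent, with MOV10 libraries as red circles left of the control libraries as dark squares; control replicate 1 had no sox7 read and has no point there. The shares lie lower in the MOV10 libraries for sox5 and sox11 and higher for sox9, while sox3 overlaps.

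Genes around the Sox factors were read from lists drawn from textbook knowledge, with L and S copies counted separately. SoxB1 proteins act with POU factors, and of 34 tested SoxB1 partner and neural plate models 20 fell and 3 rose, with a median log2 fold change of -1.73. Of this list 67.6% were called, against 42.1% of all tested genes. The pluripotency factor pou5f3.2.L had 12.6 and 7.16 CPM in the MOV10 libraries, against 490, 466 and 523 CPM in the controls. It fell by 5.64 ± 0.31 on the log2 scale (SE; edgeR adjusted p = 1.29e-05), its copy pou5f3.2.S fell by 5.23 ± 0.34 and pou5f3.1.L fell by 2.45 ± 0.24. These genes fell in the libraries in which both sox3 copies and sox15.L fell, and a link between them was not tested.

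Endoderm genes around Sox17 fell in 10 of 29 tested models, rose in 1 and did not pass in 18, with a median log2 fold change of -0.93. The share called, 37.9%, was near the 42.1% of all tested genes, of which 17.7% fell. The secreted antagonist gene cer1.S had 7.13 and 9.24 CPM in the MOV10 libraries and 416, 194 and 230 CPM in the controls. It fell by 5.09 ± 0.42 on the log2 scale (SE; edgeR adjusted p = 8.44e-05), the T-box gene eomes.L fell by 3.85 ± 0.42 and its copy eomes.S fell by 4.47 ± 0.58. The sox17a copies, measured in the same libraries, did not pass the test. Leaving out MOV10 replicate 2 gave 4 endoderm models that rose, and leaving out MOV10 replicate 3 gave 0.

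Neural crest genes around SoxE fell in 7 of 22 tested models, rose in 1 (snai2.L, a crest repressor gene) and did not pass in 14. At 36.4% called the list was near the 42.1% of all tested genes, of which 17.7% fell and 24.4% rose. The regulator tfap2a.L fell by 2.59 ± 0.24, msx1.S fell by 2.43 ± 0.28 and zic1.S, which is also on the neural plate list, fell by 3.46 ± 0.46 on the log2 scale (SE; edgeR adjusted p = 1.60e-04, 3.76e-04 and 7.36e-04). No crest model rose without MOV10 replicate 2, and without control replicate 1 or control replicate 3 there were 2. Of sox8, sox9 and sox10, only sox9.L passed the test, and it rose.

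Cartilage matrix genes, which Sox9 and Sox5 switch on in the mouse, rose in 8 of 11 tested models, fell in 0 and did not pass in 3 (24.4% of all tested genes rose), with a median log2 fold change of 3.81. That median stayed at 3.81 with col9a2.S, the 1 tested model with no read in any control, set to its bound of at least 14.2-fold. The 8 that rose were copies of col2a1, col9a1, col9a2, col9a3 and matn4. Of the 3 that did not pass, comp.S lay below all controls (log2 fold change -0.94 ± 0.52, SE), while col9a2.L and col9a3.L overlap. The other 7 cartilage models were not tested. Of these acan.L, comp.L, hapln1.S, matn1.L and matn1.S had no read in any library, and acan.S and hapln1.L had few. The collagen gene col2a1.S had 186 and 224 CPM in the MOV10 libraries, against 0.668, 2.20 and 3.21 CPM in the controls, and col2a1.L had 274 and 385 CPM against 5.01, 15.7 and 7.50 CPM. The log2 fold changes were 6.68 ± 0.50 and 5.14 ± 0.45 (SE; edgeR adjusted p = 6.29e-05 and 1.21e-04). The matrilin gene matn4.L had 264 counts in both MOV10 libraries together and 3 in the controls, a ratio of 163 (exact 95% counting interval 55.2 to 796) that became 303 (54.0 to 12028) without control replicate 1. Only 5 cartilage models rose without MOV10 replicate 2. The models col9a2.S, matn4.L and col9a1.S (12, 0 and 1 control counts) passed the filter on low counts through the MOV10 libraries alone. For these the rise was partly set by the filter. The same libraries held the higher sox9.L and sox5.S levels and the muscle sums given above. A link between these levels and the cartilage genes was not tested.

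Vascular genes around SoxF rose in 4 of 11 tested models and fell in 0, with 7 not past the test. The share called was 36.4%, against 42.1% of all tested genes, of which 24.4% rose and 17.7% fell. The other 15 vascular models were not tested. Of these 5 had reads only in the MOV10 libraries, 5 only in the controls, 2 in both and 3 in none. Among those with reads only in the controls were flt1.S with 13 counts and pecam1.S with 12, chosen after their values were seen. The blood and vessel regulator lmo2.S had 385 counts in both MOV10 libraries together and 3 in the controls, all in replicate 1. That is a ratio of 238 (exact 95% counting interval 80.8 to 1158), and at least 147-fold higher without that control. It passed the filter on low counts through the MOV10 libraries alone. For the receptor genes tie1.L and kdr.L the log2 fold changes were 5.52 ± 0.65 and 5.51 ± 1.04 (SE; edgeR adjusted p = 4.35e-04 and 0.00372), though kdr.L was unequal in the MOV10 libraries, at 2.25 and 12.2 CPM against 0 to 0.334 CPM in the controls. Like lmo2.S, kdr.L passed the filter on low counts through the MOV10 libraries alone. The number of vascular models that rose was therefore partly set by the filter. Of 31 tested genes with HMG boxes outside the family 6 rose, 7 fell and 18 missed the threshold, a share of 41.9% called that was near the 42.1% of all tested genes. Of the chromatin genes, hmgb3.S fell by 1.95 ± 0.21, smarce1.L fell by 1.44 ± 0.18 and ssrp1.S rose by 1.69 ± 0.19 on the log2 scale (SE; edgeR adjusted p = 2.67e-04, 5.41e-04 and 3.53e-04). The HMG-box genes that rose were 3 without MOV10 replicate 2.

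**Figure D5:**
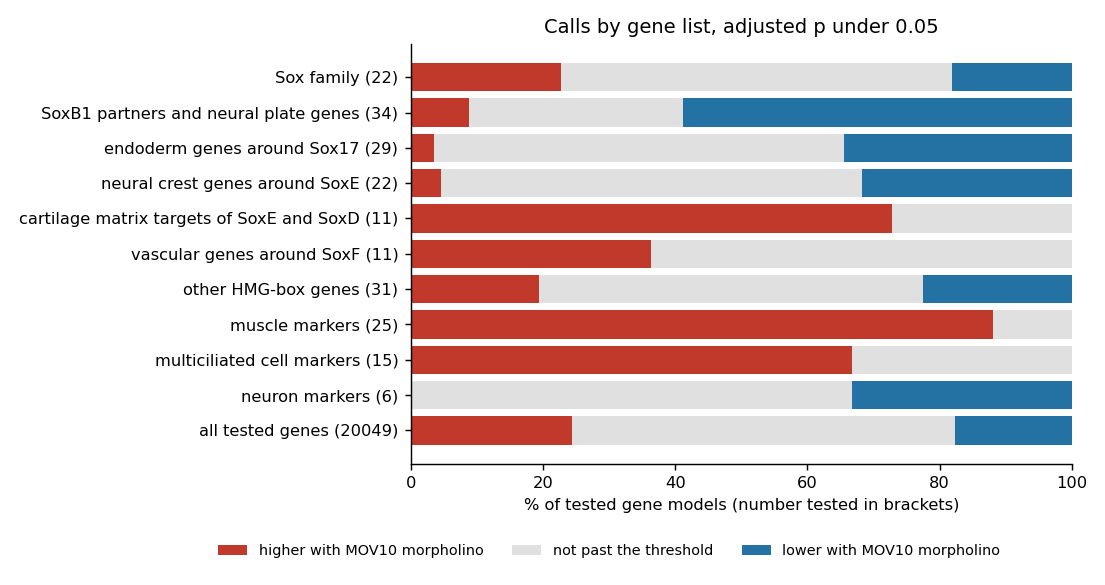
Percent of the tested models of each list that were higher, not past the threshold or lower with the MOV10 morpholino, with the number tested in brackets and all tested genes in the last row. The Sox family divides much like all tested genes, the SoxB1 partner list is mostly lower (20 of 34), and the cartilage (8 of 11) and muscle (22 of 25) lists are mostly higher.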

How the data were processed

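RNA of whole embryos was read in 2 MOV10 and 3 control libraries made with a stranded TruSeq mRNA kit, per the labels' protocols; a MOV10 library numbered 1 was not analysed here. Tools named in the submitters' processing notes are STAR 2.5.2a, edgeR 3.15.2, and bcl2fastq 2.17.1.14 with FastQC 0.11.4. The deposited count files hold whole-number read counts per gene model for each library, in the layout of STAR, in which only reads with a single place on the genome are counted. Gene models are Xenbase models and the build is Xenla9.1, both per the legend of the deposited annotation, which covers 45098 of 45099 models. The reverse-strand count in column 4, the sense strand for this kit, was used. It held 88.3 and 89.3% of the gene reads of both strands in the MOV10 libraries and 92.1 to 93.9% in the controls. Summary lines that name no gene were left out. Of 120128621 to 156177877 reads per library 7.51 to 10.4% were assigned to genes, 29.8 to 40.4% were unmapped, 2.02 to 5.53% mapped to several places and 48.6 to 57.1% lay outside features. The deposited table of the authors' comparison gives a log2 CPM and a log2 fold change per gene, a signed fold change that is a score without values between -1 and 1, and p-values with false discovery rates, and the sources used here do not say which test gave these. Its log2 fold changes differed from those computed here by at most 0.00127 for the 22 tested Sox members.

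The test was edgeR 4.0.16 (R 4.3.3): filterByExpr with a minimum count of 10, TMM scaling, the quasi-likelihood F test of MOV10 over control, and Benjamini-Hochberg adjustment over 20049 models at 0.05. The SE is the log2 fold change divided by the square root of F. The ratio of L to S copies was fitted with limma 3.58.1 on log2(CPM + 0.5), which damps changes of rare copies. DESeq2 1.42.0, other scalings, no filter, counts without strand, a block on the replicate number, other pseudocounts and leaving out each library were alternatives.

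Members past the threshold have their level in every library, log2 fold change, SE and adjusted p, other tested members their fold change, and untested members their counts. Of each surrounding list up to 3 called genes with the smallest adjusted p are named. The Sox members, the 6 surrounding lists, the 4 marker lists and the tests were chosen with earlier results of these data known. Copies were matched by symbol in the deposited annotation; a model matched there to human SOX30, with 0 and 3 counts in the MOV10 libraries and 0 in the controls, lies outside the rule. Near-identical copies lose the reads they share, and no transcript lengths were used, so shares of the family's reads are shares of reads and not of transcripts. Intervals, bounds and floors of 3 counts cover counting error only. The p-values of edgeR and limma judge the group difference against the spread between these libraries, estimated with the help of all genes.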

Additional observations from a re-analysis of the deposited data

How the results depend on the processing

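Sox members higher and lower numbered 5 and 4, and 5 and 4 with the size factors of DESeq2, 5 and 5 with total counts as scale or with the DESeq2 test, 7 and 5 without a filter and 6 and 5 without strand. Over single left-out libraries they ranged from 4 to 7 higher and from 1 to 3 lower, with 1 lower, sox15.L, without control replicate 1. The surrounding lists held 65 calls, 54 to 65 over left-out libraries and 60 to 67 otherwise. The Sox pairs with a changed ratio numbered 2, 0 to 2 over left-out libraries, 1 with a pseudocount of 0.1 CPM (sox5 limma adjusted p = 0.0555), and 3 without a filter. The sox17a to sox17b.1 difference was 1.21 (log2), also without strand, and 0.97 to 1.46 over left-out libraries. The 9 called members kept their direction in all 11 alternatives.

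Replicate numbers 2 and 3 are shared by the groups. Over all tested genes, deviations of same-numbered libraries correlated at 0.0981 and 0.0145, and the numbers were not taken as pairs. That is a weak basis, because the deviations of 2 MOV10 libraries are exact opposites. From replicate 2 to 3, sox2.S, both sox3 copies and sox15.L fell in both groups, and the 4 sox17 models rose in both. Not all members moved alike, and sox13.S rose in the MOV10 group and fell in the controls. With a block on the number the SE of sox17a.S went from 0.39 to 0.18 and that of sox9.L from 0.63 to 1.07. With the replicate block 8 members were higher, 5 lower and 3 pairs changed. Here sox4.L (log2 fold change 5.08), sox8.L (4.49), sox17a.S (0.74) and sox17b.1.L (-0.65) passed, as did the sox17a pair (limma adjusted p = 0.0494). No Sox call ended. Replicate 1 exists only among the controls, so under the block control replicate 1 does not enter the group difference. Leaving that library out without a block ended the calls of sox3.L, sox3.S, sox17b.1.S and the sox5 and sox11 pairs. These settings rest on the same libraries and are not independent alternatives.

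The direction turned 12 times, each for a member that did not pass the test. With total counts sox11.L was at -0.025 and sox17a.L at -0.067, and with the block sox1.L was at -0.32 and sox7.L at -0.40. The other 8 came from left-out libraries. There sox1.L ran from -6.98 without MOV10 replicate 2, where MOV10 replicate 3 had 0 reads, to 1.33. The log2 fold change of sox7.L ran from -0.91 (without MOV10 replicate 2) to 1.28, and was -0.20 without control replicate 1. For sox17a.L it ran from -0.76 (without MOV10 replicate 3) to 0.67, and was -0.12 without control replicate 2. The ranges were -0.11 (without MOV10 replicate 3) to 0.89 for sox17a.S, -0.15 (without control replicate 3) to 0.54 for sox11.L and -0.058 (without control replicate 2) to 0.59 for sox9.S. The cause was not tested.

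Leaving out a MOV10 library leaves 1, which is assumed to vary like the controls, and the filter then kept 21439 or 21561 models. The members sox1.L, sox7.L and sox8.L have few reads, libraries far apart and standard errors above 1 (log2), and changes of that size would not have been called for them. The standard errors of sox4.L (1.11) and sox7.S (1.04) were also above 1.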
